A study of Mus musculus with 14 samples.

Results

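The 8 cortex libraries described here are those whose sample titles begin with 046, 047, 048 or 139, and they are 8 of the 14 libraries of the series. They are defined by title, but were chosen with earlier results of these data known, in which the other libraries stood apart. Each of these 4 title prefixes holds 1 heterozygous Dnmt3a knockout animal and 1 wild-type animal of the same sex. Thus 4 heterozygotes were compared with 4 wild-type mice in 4 pairs. The study asked how loss of 1 copy of Dnmt3a changes gene expression in the mouse brain, and the series describes total RNA sequencing, although the molecule field of the labels reads genomic DNA. All animals were C57BL/6J mice aged 8 weeks, the wild-type animals are called littermates in the labels, and the tissue is labelled cortex. Both groups held 2 females (prefixes 047 and 139) and 2 males (prefixes 046 and 048). No Cre driver or transgene is named, and neither the deleted stretch of Dnmt3a nor what the title prefix marks is given in the labels.

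Dnmt3a encodes a DNA methyltransferase that adds methyl groups to unmethylated cytosines. In neurons it is highly active in the first weeks after birth, when it places methylation at CG sites and, unusually for mammalian cells, at many CA sites within gene bodies. Loss of 1 functional copy of the human gene is known as a cause of an overgrowth and intellectual disability syndrome.

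Total counts ranged from 8951835 to 14206585 per animal, and the genotypes did not differ in depth beyond the spread between animals (two-sided exact permutation p = 0.257, 4 against 4). Xist was between 624 and 899 CPM (counts scaled to library size) in the females and at most 1.89 CPM in the males, which matches the sex labels. Pan-neuronal markers summed to 12499 to 13249 CPM per animal, whereas choroid plexus and ependymal markers summed to 12.5 to 20.2 CPM, and no member of either list in the table was at 0 in all 8 animals. Markers of the striatum, which lies directly under the cortex, summed to 758 to 1872 CPM, a spread that crosses both genotypes. In bulk tissue, fewer cells of a type and less RNA per cell cannot be told apart. The labels do not say whether animals of a prefix come from 1 litter. In edgeR fits that pair these 8 animals by title prefix, p-values set the genotype difference against an estimate of the spread between pairs. That estimate is moderated across all genes tested, so it is not the spread of a single gene's 4 pair values alone.

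Of 13852 genes tested across the 8 animals, 2 differed by genotype, both lower in the heterozygotes: Dnmt3a itself and Aldh1a1, which encodes a retinaldehyde dehydrogenase that makes retinoic acid. These are 0.0144% of the genes tested (adjusted p under 0.05 in edgeR's quasi-likelihood test, with the title prefix as a block), and 0 genes were called higher. At an unadjusted p under 0.05, 421 genes were higher (3.04%) and 333 lower (2.4%).

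Dnmt3a stood at 163, 158, 124 and 148 CPM in the wild-type animals of prefixes 046, 047, 048 and 139, the order used for all values below. In the heterozygotes of the same prefixes it stood at 96.3, 118, 100 and 89.7 CPM. Every heterozygote was below every wild-type animal, but the gap between the groups was small: the lowest wild-type animal (prefix 048) exceeded the highest heterozygote (prefix 047) by little. The means were 148 ± 17.5 CPM in wild type and 101 ± 11.9 CPM in heterozygotes (SD, n = 4 each). By edgeR the adjusted p was 0.0021 and the log2 fold change -0.55 (SE 0.0699), which leaves 68.1% of the wild-type level. All 70 ways of dividing the animals 4 against 4 were tried in a two-sided exact permutation test, with p = 0.0286, the smallest it can give. The decrease was not equal in the 4 pairs, with log2 differences of -0.76, -0.42, -0.30 and -0.72. The counts may include RNA made from the knockout allele.

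Aldh1a1 separated the genotypes as completely. Its level was 30.8, 28.3, 30.3 and 34.0 CPM in wild type and 22.4, 19.9, 22.0 and 20.7 CPM in the heterozygotes, and the pairs gave similar log2 differences of -0.46, -0.50, -0.46 and -0.72. The edgeR estimate was a log2 fold change of -0.54 (SE 0.0809) with an adjusted p of 0.014, or 68.9% of the wild-type level. In females the estimate was -0.62 (SE 0.116) and in males -0.46 (SE 0.112), a difference that did not pass the test (adjusted p = 0.887 by edgeR).

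The calls depended on the model and on single pairs. With sex as a term in place of the prefix, neither gene passed (Dnmt3a -0.56 with adjusted p = 0.111, Aldh1a1 -0.54 with adjusted p = 0.052, by edgeR), although the fold changes hardly moved, and with genotype alone and no pairing Aldh1a1 passed (adjusted p = 0.0388 by edgeR) and Dnmt3a did not (adjusted p = 0.0997). DESeq2 with the same block called Dnmt3a alone, with Aldh1a1 at an adjusted p of 0.061. Without the wild-type animal of prefix 046, or without both animals of that prefix, Dnmt3a and Aldh1a1 both passed. With only the heterozygote of prefix 046 left out, neither gene passed (adjusted p = 0.0736 for both by edgeR). Without either animal of prefix 047 or of prefix 139 Aldh1a1 was also lost, with adjusted p between 0.0536 and 0.111 by edgeR and log2 fold changes between -0.55 and -0.47.

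**Figure D1:**
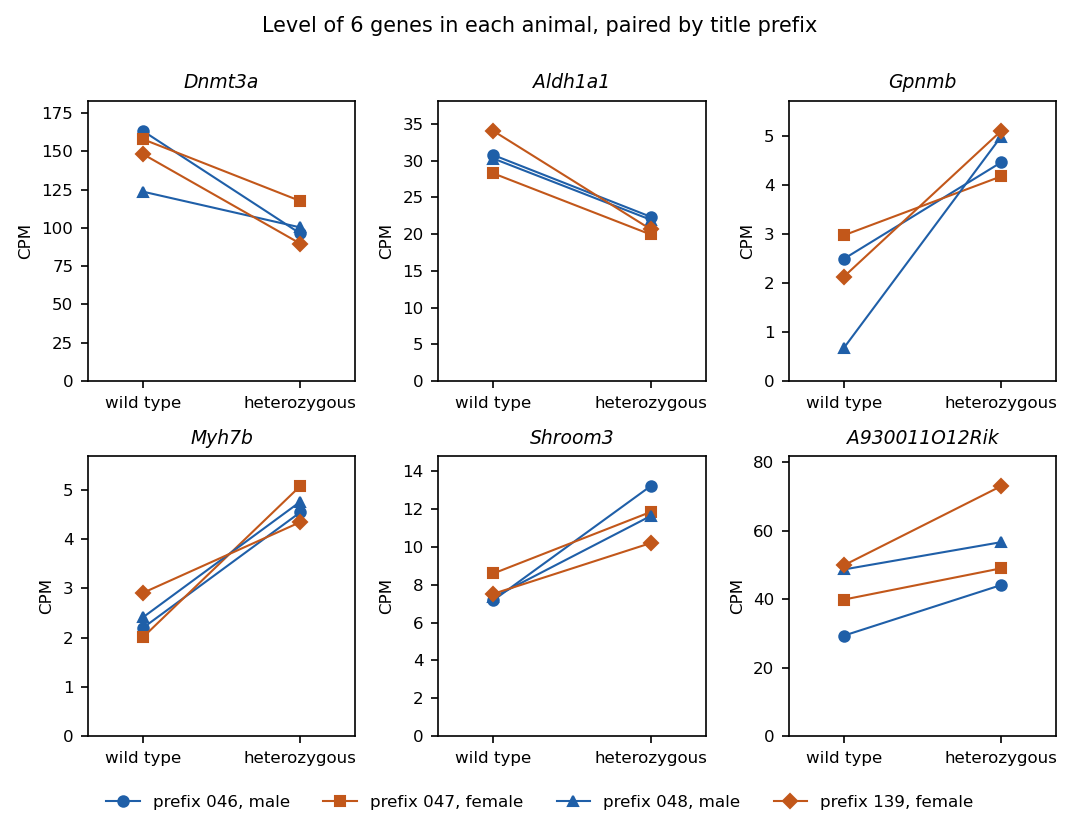
Level of 6 genes in CPM (vertical axis, from 0) in the wild-type and heterozygous animal of each title prefix, with a line joining the animals of a prefix. Dnmt3a and Aldh1a1 fall in all 4 pairs, Gpnmb, Myh7b and Shroom3 are higher in every heterozygote than in every wild-type animal, and A930011O12Rik is higher within each pair while the groups overlap.

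The other enzymes and readers of DNA methylation gave no call. Of 21 tested genes in a list of writers, erasers and readers, Dnmt3a alone passed, 15 had a positive and 6 a negative log2 fold change, and the list's median was 0.05 against 0.00 over all genes. The maintenance methyltransferase gene Dnmt1 was at -0.04 (SE 0.0624). Tet3, an oxidase of methylcytosine, was at 0.05 (SE 0.0596), and Tet2 was at 0.13 (SE 0.0726). Mbd4, a glycosylase gene of base repair, and Gadd45a, linked to demethylation, were higher in 4 of 4 pairs, with 0.24 (SE 0.121) and 0.29 (SE 0.147), and neither passed.

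No gene passed upward, so the 10 upward genes with the smallest p are given as values. When the other 6 animals also entered the fit and informed the spread, the same contrast called 9 genes: Dnmt3a, Aldh1a1 and Kcnj2 lower, and A930011O12Rik, Pamr1, Shroom3, Myh7b, Cd6 and Gpnmb higher. They were A930011O12Rik, Klf10, Shroom3, Myh7b, Gfra2, Pamr1, Dkk3, Miat, Cd6 and Crb2, with adjusted p between 0.0681 and 0.127 by edgeR, and were picked for the same direction in 4 of 4 pairs, which 6.81% of all tested genes showed upward and 6.32% downward. In 7 of these 10 genes the ranges of the genotypes did not overlap. Over all tested genes, 2.9% had ranges that did not overlap, 213 with the heterozygotes higher (1.54%) and 189 with them lower (1.36%). Since small p chose these genes, their separation is a description.

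Among them Myh7b, a myosin heavy chain gene, had the largest ratio. It stood at 2.20, 2.01, 2.41 and 2.91 CPM in wild type and 4.54, 5.07, 4.75 and 4.34 CPM in heterozygotes, with a log2 fold change of 0.97 (SE 0.197). The separation is wide relative to the spread, but the mean count was 41.1 reads per animal. Cd6, better known as a lymphocyte surface receptor gene, was similarly low: 2.27, 3.53, 2.99 and 2.91 CPM in wild type and 4.04, 5.52, 4.30 and 8.30 CPM in heterozygotes. Its highest value came from the heterozygote of prefix 139.

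Shroom3, which encodes an actin-binding protein of cell shape, was between 7.18 and 8.59 CPM in wild type and between 10.2 and 13.2 CPM in the heterozygotes (log2 fold change 0.62, SE 0.123). Gfra2, the receptor gene for neurturin, was more abundant and nearly as uniform: 111, 113, 101 and 110 CPM in wild type against 135, 136, 125 and 127 CPM. The 4 pair differences of Gfra2 were 0.28, 0.27, 0.30 and 0.20 on the log2 scale, and its fitted value was 0.27 (SE 0.0549). Pamr1, a secreted protein gene, ran from 30.2 to 38.8 CPM in wild type and from 43.3 to 45.5 CPM in heterozygotes. Dkk3, of the Dickkopf family, ran from 346 to 405 and from 430 to 493 CPM. Crb2, an apical polarity gene, ran from 10.4 to 13.3 and from 14 to 20.4 CPM.

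For the remaining 3 upward genes the groups overlapped, since the prefixes differed more than the genotypes. A930011O12Rik, an uncharacterised transcript, differed between prefixes in the wild-type animals as well: 29.4, 39.9, 48.7 and 49.9 CPM, against 44.1, 49.0, 56.7 and 73.0 CPM in the heterozygotes (log2 fold change 0.41, SE 0.0725). Klf10, a zinc finger transcription factor gene, was high in both animals of prefix 047, at 78.4 CPM in wild type and 93.0 CPM in the heterozygote. The other 3 prefixes lay between 49.2 and 51.1 CPM in wild type and between 61.0 and 64.5 CPM in heterozygotes, and the 4 pair differences were 0.33, 0.25, 0.32 and 0.31. Miat, a long noncoding RNA, was at 87.7, 98.1, 120 and 121 CPM in wild type and 105, 111, 150 and 149 CPM in heterozygotes.

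Downward, the 8 genes next to Dnmt3a and Aldh1a1 were Zcchc12, Kcnj2, Ptpro, Filip1, Nov, Nr2f2, Scn3b and Amz1, with adjusted p between 0.127 and 0.213 by edgeR. With Dnmt3a and Aldh1a1 included, 6 of 10 had ranges that did not overlap. Scn3b, which encodes an auxiliary subunit of voltage-gated sodium channels, was at 114, 117, 109 and 112 CPM in wild type and 104, 79.3, 97.4 and 90.9 CPM in heterozygotes (log2 fold change -0.29, SE 0.0664). The wild-type animals were tightly grouped, and the heterozygote of prefix 047 was lowest. Ptpro, a receptor tyrosine phosphatase gene, was at 33.4, 28.7, 36.6 and 28.9 CPM against 28.7, 19.3, 28.1 and 22.3 CPM (-0.38, SE 0.08). Zcchc12, a transcriptional coactivator gene, ran from 35 to 52.1 CPM in wild type and from 25.4 to 34.6 CPM in heterozygotes. Kcnj2, an inward rectifier potassium channel gene, ran from 34.5 to 56.3 and from 30.5 to 37.7 CPM, and here the groups overlapped.

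The heterozygote of prefix 047 had the largest drop within a pair for several of these genes. Nr2f2, an orphan nuclear receptor gene, ran from 24.5 to 31.7 CPM in wild type and from 17.6 to 29.3 CPM in heterozygotes, and the groups overlapped through the heterozygote of prefix 048. The pair of prefix 048 hardly differed in Nr2f2 (log2 difference -0.11) and that of prefix 047 differed by -0.82. Amz1, a metalloprotease gene, gave -0.38, -0.93, -0.28 and -0.41 in the 4 pairs, and Filip1, a filamin-interacting protein gene, gave -0.20, -1.17, -0.71 and -0.61. Nov, which encodes a secreted matricellular protein, ran from 141 to 160 CPM in wild type and from 109 to 146 CPM in heterozygotes.

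Gpnmb, a glycoprotein gene of lysosomes and of activated microglia, is the member of the lysosomal list with the smallest p. It stood at 2.49, 2.97, 0.675 and 2.13 CPM in wild type and at 4.46, 4.17, 4.98 and 5.10 CPM in heterozygotes, so that the groups did not overlap. Its log2 fold change of 1.19 (SE 0.257) did not pass (adjusted p = 0.145 by edgeR), and its mean count was 39.8. The microglia list as a whole was split, with 10 of 22 members positive and a median of 0.00. Tyrobp, a microglial adaptor gene, was at -0.51 (SE 0.17) and Trem2, its receptor partner, at 0.29 (SE 0.153), so that partners gave opposite signs, and neither passed.

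The 6 animals of the other title prefixes, 119 and 141, give an estimate that shares no animal with these 8. In those 3 heterozygotes and 3 wild-type animals Dnmt3a was at -0.58 (SE 0.0613, adjusted p = 2.11e-06 by edgeR) and Aldh1a1 at -0.55 (SE 0.0742, adjusted p = 1.08e-05). The difference in genotype effect between the sets of animals was 0.03 (SE 0.0994) for Dnmt3a and 0.02 (SE 0.108) for Aldh1a1, each within its standard error. Of the 10 named upward genes, 8 had the same direction there, beside 49.9% of all genes tested in both sets. Of those, Klf10, Gfra2, Dkk3 and Crb2 passed, where 8.88% of all genes were called higher. The effect on Klf10 was larger there, with a difference between the sets of -0.43 (adjusted p = 0.0132 by edgeR). Myh7b gave 0.58 (SE 0.221, adjusted p = 0.0678 by edgeR). A930011O12Rik and Miat went the other way and passed with the opposite sign, at -0.26 (SE 0.0731) and -0.32 (SE 0.0739). Of the 10 downward genes 7 had the same direction, and Dnmt3a, Aldh1a1 and Amz1 passed, where 7.72% of all genes were called lower. For Kcnj2 the difference of -0.44 passed (adjusted p = 0.0168 by edgeR). Gpnmb was called there too, at 1.62 (SE 0.245).

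**Figure D2:**
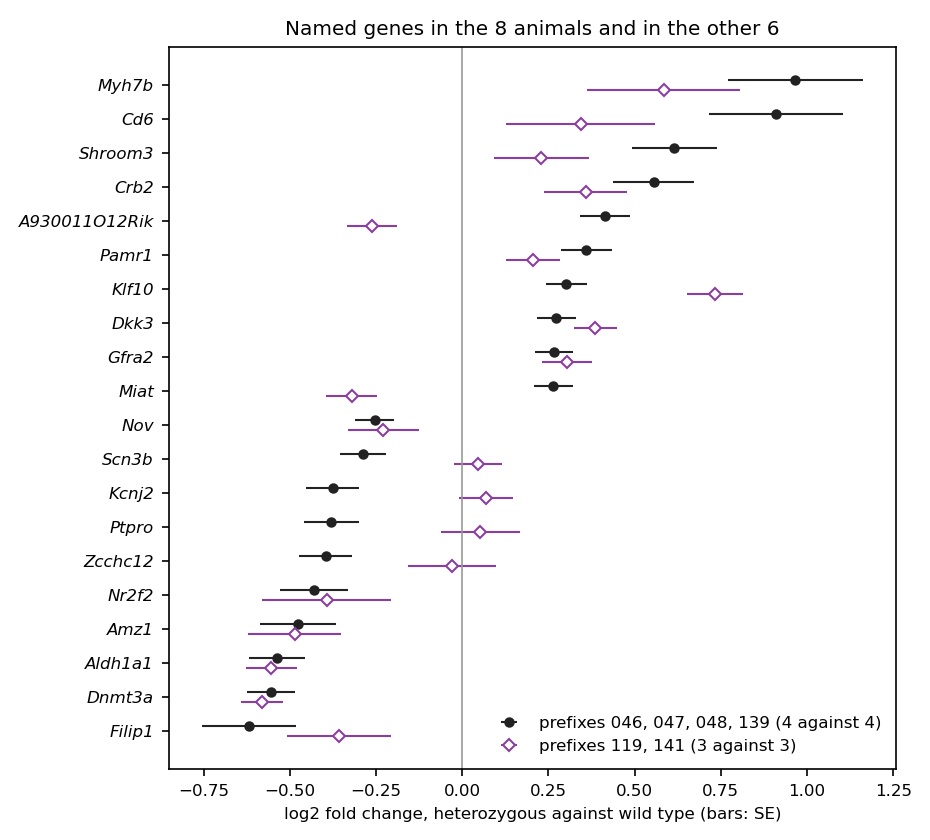
Log2 fold change of heterozygous against wild-type animals for the 20 named genes (horizontal axis, bars are the SE), in the 8 animals of prefixes 046, 047, 048 and 139 (filled circles) and in the 6 animals of prefixes 119 and 141 (open diamonds). For Dnmt3a and Aldh1a1 the bars of both sets overlap, whereas A930011O12Rik and Miat lie on opposite sides of 0.

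Beyond these genes the sets of animals differed. Prefixes 119 and 141 gave 2304 calls by the same test (16.6% of 13881 genes), 8.88% higher and 7.72% lower, against the 2 in the 8 animals. The test of the difference itself, in a fit of all 14 animals with the prefix as a block, called 767 of 13815 genes (5.55%), 374 (2.71%) with a more positive effect in the 8 animals and 393 (2.84%) with a more negative one. That count fell to 0 without the replicate block and ran from 170 to 1153 with 1 animal left out. The sets were split with earlier results of these data known, in which prefixes 119 and 141 stood apart. The count is therefore a description, not independent evidence that the sets differ. Across the 13702 genes tested in both, the fold changes of the sets had Pearson's r of 0.08 and Spearman's rho of 0.03, and 49.9% had the same sign. Genes are not independent replicates, so these are descriptions. Genes called higher in prefixes 119 and 141 had a positive value in the 8 animals in 48.4% of cases, and genes called lower had a negative value in 53.4%, where 50.1% of all genes were positive. Mitochondrial counts other than ribosomal RNA took 0.571% to 0.86% of counts in the 8 animals. In prefix 119 they took 1.51% in wild type and 1.11% in the heterozygote. In prefix 141 they took 1.99% and 1.97% in wild type and 1.56% and 1.46% in the heterozygotes. The part of this share in the calls was not tested.

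The 5 genes with the smallest p in each direction of that difference are given as values, and do not stand for the other genes called. Grin2b, a subunit gene of NMDA-type glutamate receptors, was at 701, 725, 499 and 628 CPM in wild type and 589, 585, 545 and 487 CPM in the 8 animals' heterozygotes, lower in 3 of 4 pairs (log2 fold change -0.20, SE 0.0668), and was called higher in the other 6 animals (0.43, SE 0.0578). Adar, the RNA-editing adenosine deaminase gene, was at -0.18 (SE 0.0554) and 0.42 (SE 0.0655). For Pak6, Palm and Ndufb9, by contrast, the 8 animals gave values near 0 (0.06, 0.02 and 0.11), and the difference came mostly from the other animals (-0.57, -0.47 and -0.48). Tspyl5, Tspyl4 and Fam100a likewise gave -0.04, -0.11 and -0.14 in the 8 animals against 0.51, 0.35 and 0.46. The mitochondrial ribosomal RNA mt-Rnr2 was at 0.15 (SE 0.0517) against -0.49 (SE 0.0756). Both mitochondrial ribosomal RNAs together took 3.53% to 5.49% of counts in the 8 animals, and the share was higher in the heterozygote of each pair: 3.53% and 4.09%, 3.81% and 4.29%, 5.47% and 5.49%, and 4.28% and 5.12%. Two-sided exact permutation gave p = 0.371 over all splits of the animals (smallest possible 0.0286). Within the prefix (16 relabellings) p was the smallest that 4 pairs allow, which is above the threshold of 0.05.

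**Figure D3:**
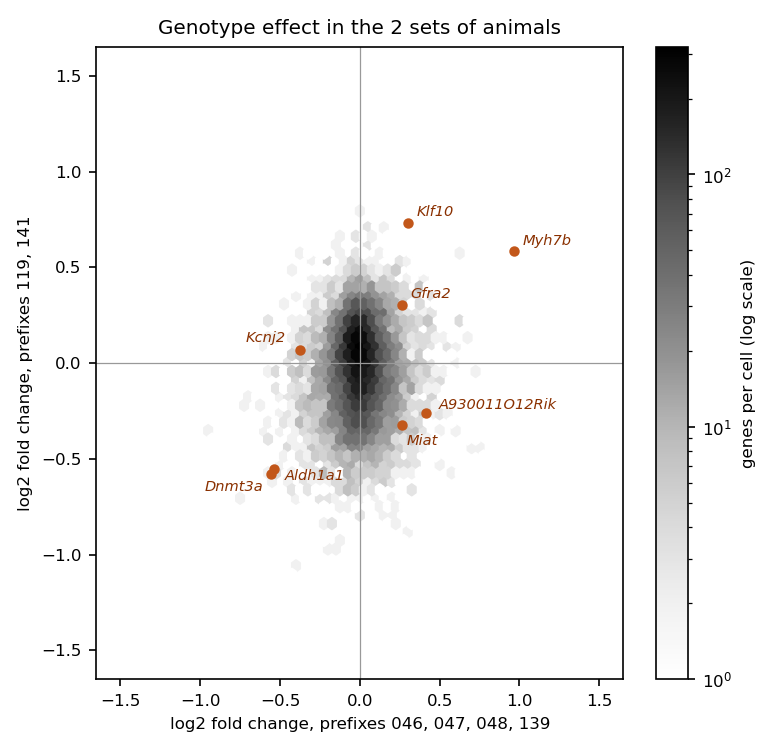
Log2 fold change of each gene in the 8 animals (horizontal axis) and in the 6 animals of prefixes 119 and 141 (vertical axis), with grey cells shaded by the number of genes on a log scale and orange points for named genes. The cloud has little tilt (Pearson's r of 0.08), while Dnmt3a and Aldh1a1 lie together in the lower left and Klf10, Gfra2 and Myh7b in the upper right; 4 genes beyond 1.5 on either axis are not drawn.

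Within the 8 animals the sexes were compared in 1 fit with a genotype effect for each sex, 2 pairs each. In the males 22 genes differed (0.159% of those tested), 17 higher (0.123%) and 5 lower (0.0361%), and in the females 0 passed (0 also with DESeq2, and 768 at an unadjusted p under 0.05). The female minus male difference in genotype effect, which is the test of whether the sexes differ, called 8 genes (0.0578%). Of these, 7 (0.0505%) had a more positive effect in males: Sgk1, Fosb, Irs2, Arc, Pim3, Mfge8 and Ddit4. The eighth, Tfrc (1 gene, 0.00722%), had a more positive effect in females.

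Neuronal activity induces transcription of the immediate early genes within minutes, and Arc, which encodes a postsynaptic protein that regulates receptor trafficking, is among the most used of them. Arc was at 358 CPM in the wild-type male of prefix 046 and 596 CPM in its heterozygous partner, and at 291 and 574 CPM in the male pair of prefix 048. In the female pairs it was at 514 and 632 CPM (prefix 047) and at 366 and 336 CPM (prefix 139). Both heterozygous males thus exceeded both wild-type males, while the females gave a rise and a slight drop. Arc rose by 0.86 in males (log2, SE 0.0905, adjusted p = 0.000127 by edgeR), the female value was 0.09 (SE 0.0902), and the difference was -0.77 (SE 0.128, adjusted p = 0.0203 by edgeR).

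Fosb, a subunit gene of the AP-1 transcription factor, was at 24.4 and 36.3 CPM in the wild-type and heterozygous male of prefix 046 and at 15.5 and 32.4 CPM in those of prefix 048. In the females it was lower in the heterozygote of each pair, at 44.1 and 38.2 CPM and at 25.5 and 17.4 CPM. The difference between the sexes was -1.15 (SE 0.176, adjusted p = 0.00668 by edgeR), the largest of the 8. Nr4a3, an orphan nuclear receptor gene, rose in males from 19 to 28.8 and from 11.7 to 30.3 CPM (0.95, SE 0.144) and was at 35.2 and 34.7 and at 21.8 and 21.0 CPM in the female pairs. For Nr4a3 the difference between the sexes did not pass (adjusted p = 0.0817 by edgeR).

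Per1, a clock gene that activity and glucocorticoids also induce, rose in males from 99.4 to 140 and from 89.2 to 138 CPM (0.56, SE 0.0771). It was higher in the heterozygote of both female pairs as well, at 161 and 180 CPM and at 115 and 121 CPM, and the sexes did not differ by the test (adjusted p = 0.209 by edgeR). Egr3, Sik1, Tiparp and Trib1, all activity-responsive, also rose in males, by 0.42, 0.96, 0.81 and 0.55 on the log2 scale. For these 4 genes no difference between the sexes passed. The other genes called higher in males were Crb2 (0.81), C130039O16Rik (0.47), Smad7, an inhibitor gene of TGF-beta signalling (0.51), Sox8, a transcription factor gene (0.47), and Tnrc6c, of microRNA silencing (0.41).

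Sgk1 encodes a kinase that glucocorticoids induce. It was at 62.5 and 112 CPM in the male pair of prefix 046, at 59.4 and 96.2 CPM in that of prefix 048, at 119 and 123 CPM in the female pair of prefix 047 and at 78.1 and 58.9 CPM in that of prefix 139. Again both wild-type males were low and the female pairs went in opposite directions (sex difference -0.94, SE 0.131, adjusted p = 0.00561 by edgeR). Ddit4, a stress-induced inhibitor gene of mTOR signalling, rose from 33.9 to 61.7 and from 42.2 to 59.3 CPM in males and was at 56.1 and 52.1 and at 38.0 and 36.8 CPM in females. Pim3, a kinase gene, and Irs2, an adaptor gene of the insulin receptor, rose in males by 0.54 and 0.45, with female values of -0.19 and -0.22. Mfge8, which encodes a bridging protein of phagocytosis, did not pass in males (0.26) or females (-0.33), only in the difference between them (-0.59, SE 0.107).

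Tfrc, the transferrin receptor gene of cellular iron uptake, went the other way. In males it fell from 175 to 128 and from 196 to 141 CPM (-0.46, SE 0.0742), and in the female pairs it was at 143 and 167 CPM and at 162 and 197 CPM (0.25, SE 0.0743, not passing). The difference of 0.71 (SE 0.105) passed with an adjusted p of 0.00561 by edgeR. Rapgef4, a cyclic AMP sensor gene, and A830018L16Rik also fell in males, by 0.35 and 0.39. Dnmt3a fell by 0.53 in males, and its female value was -0.57 (adjusted p = 0.0536 by edgeR). Neurog2, a proneural transcription factor gene, fell in males too but had a mean count of 11.9, and its value is uncertain.

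**Figure D4:**
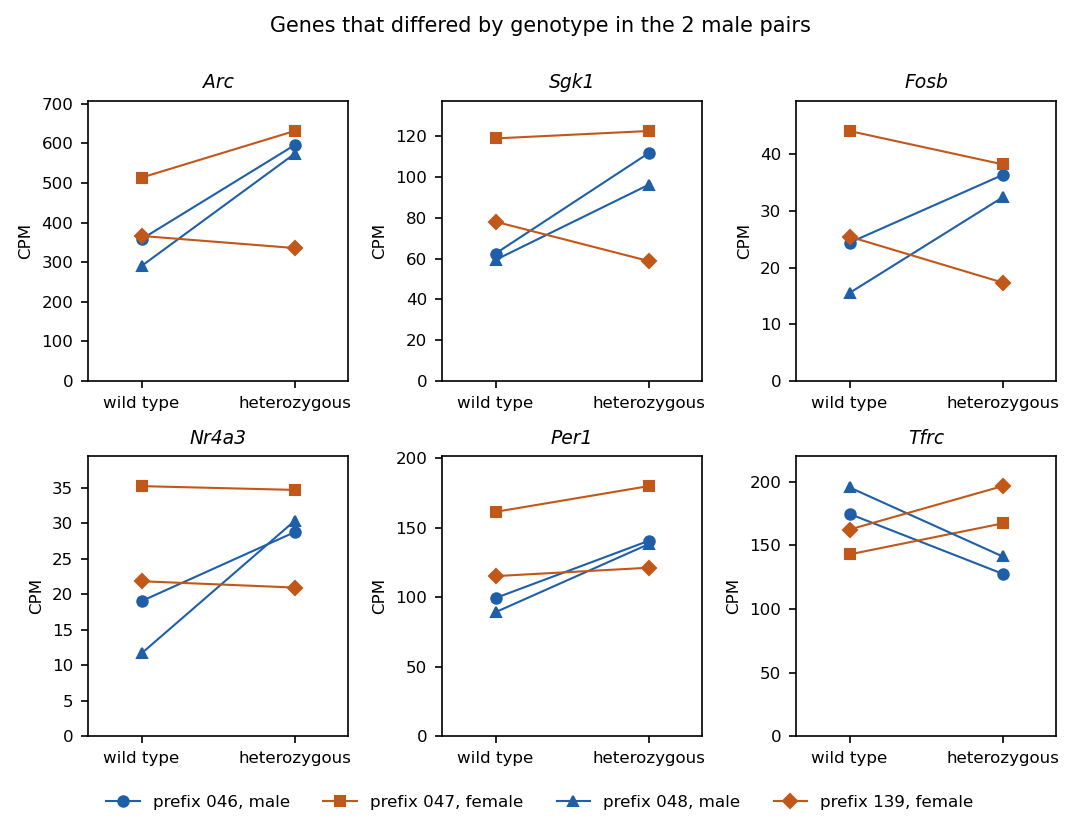
Level of 6 genes in CPM (vertical axis, from 0) in the wild-type and heterozygous animal of each title prefix, with male pairs in blue and female pairs in orange. Both blue lines rise for Arc, Sgk1, Fosb, Nr4a3 and Per1 and fall for Tfrc, whereas the orange lines go opposite ways for Arc and Sgk1, fall for Fosb and rise for Tfrc.

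The immediate early list as a whole had 28 tested members. In the 8 animals 25 had a positive log2 fold change, none passed, and the median was 0.24 against 0.00 over all genes. The medians by pair were 0.30, 0.19, 0.51 and -0.09, so that the pair of prefix 139 did not share the direction. The list summed to 2503, 2997, 2144 and 2616 CPM in wild type and 3131, 3368, 3095 and 2506 CPM in heterozygotes. In males 23 of 28 were positive with a median of 0.38, and 6 were called higher, beside 0.123% of all genes tested; in females 17 were positive with a median of 0.07. A list of 16 glucocorticoid-induced genes, which shares Per1 with it, had a median of 0.29 in males, where 2 (Sgk1 and Per1) were called, and -0.07 in females. In prefixes 119 and 141, where 4 of 6 animals were female, 22 of the 28 immediate early genes were positive with a median of 0.23, and 12 were called higher (8.88% of all genes there). Time of death, handling and housing per animal are not in the labels, and their part in these values was not tested.

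These male and female values rest on 2 pairs each. With sex as a term and no prefix block, 0 genes passed for the males, for the females or for the difference. Leaving out a prefix leaves 1 pair in its sex, so that the spread then comes from the 2 pairs of the other sex alone. Fitted that way, 0 genes passed for the difference between the sexes without prefix 139 and 160 without prefix 046. DESeq2 called 5 genes in males (Sgk1, Per1, Sik1, Arc and Tfrc) and 2 for the difference (Tfrc and Sgk1). Striatal markers had medians of 0.62 in the male pair of prefix 046 and -1.16 in that of prefix 048, and their part in these results was not tested.

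Many activity-induced genes carry binding sites of the transcription factor CREB near their start, whose core letters are TGACG. The promoters of 3 of the genes that rose in males are shown because they hold this core. They are from RefSeq (build GRCm38.p6), run from 250 bases before to 50 after an annotated start, and carry the core in capitals, as TGACG or, on the opposite strand, CGTCA.
Nr4a3, chr4:48045055-48045354, plus strand: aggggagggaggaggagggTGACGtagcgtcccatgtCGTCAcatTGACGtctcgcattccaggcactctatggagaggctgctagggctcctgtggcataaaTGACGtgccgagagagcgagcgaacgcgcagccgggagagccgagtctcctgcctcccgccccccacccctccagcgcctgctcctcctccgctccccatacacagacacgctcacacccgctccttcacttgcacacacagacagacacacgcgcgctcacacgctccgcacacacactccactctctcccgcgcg
Fosb, chr7:19309996-19310295, minus strand: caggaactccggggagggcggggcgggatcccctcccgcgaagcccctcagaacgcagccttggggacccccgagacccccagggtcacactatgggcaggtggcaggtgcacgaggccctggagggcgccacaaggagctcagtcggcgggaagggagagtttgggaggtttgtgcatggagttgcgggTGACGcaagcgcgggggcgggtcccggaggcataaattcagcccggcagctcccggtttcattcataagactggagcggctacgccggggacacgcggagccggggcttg
Per1, chr11:69099902-69100201, plus strand: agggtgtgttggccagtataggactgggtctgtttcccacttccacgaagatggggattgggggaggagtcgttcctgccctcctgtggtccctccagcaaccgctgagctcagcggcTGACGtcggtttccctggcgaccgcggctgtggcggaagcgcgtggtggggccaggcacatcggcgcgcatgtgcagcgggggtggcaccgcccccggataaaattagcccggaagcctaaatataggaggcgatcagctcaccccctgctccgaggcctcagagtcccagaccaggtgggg
Of the 17 genes called higher in males, 11 were in the promoter table, and 6 of these (54.5%) held TGACG on either strand in at least 1 annotated start. The share was 23.0% over all 27025 genes of the table. Besides the genes shown, Crb2, Sgk1 and Tnrc6c held the core, while Ddit4, Irs2, Pim3, Sox8 and Tiparp did not. Counted by start, 41.2% of the 17 promoters of the 11 genes held it against 20.8% of all promoters. Sgk1 counts through 1 of its 6 starts. The core contains a CG. With each gene counted by its start with the most CG, the median number of CG was 26 in these genes and 8 over all genes. The part of the CG number in the shares was not tested. The full palindrome TGACGTCA, which contains the core on both strands, was in none of the 11 and in 2.03% of all genes. A match is a description of letters, and the build differs from mm9, the build named for the counts.

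Lists of cell types and of cell functions gave few calls. Across all 34 lists, the members called by genotype were Dnmt3a and Aldh1a1 alone. In the 8 animals 14 of 22 astrocyte markers were negative with a median of -0.02, while in prefixes 119 and 141 the median was -0.37 with 21 of 22 called lower (7.72% of all genes there). Gfap, the intermediate filament gene of astrocytes, illustrates this: 132, 124, 139 and 108 CPM in wild type and 118, 92.8, 127 and 109 CPM in heterozygotes (-0.17, SE 0.0641), against -0.61 in the other animals. Ribosomal protein genes had a median of -0.02 (other animals -0.34) and nuclear respiratory chain genes a median of 0.02 (other animals -0.22).

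Myelin genes leaned positive and precursor genes negative. Of 21 oligodendrocyte and myelin markers 19 were positive, with a median of 0.07. However, no member was higher in 4 of 4 pairs, and 1, Aspa, was lower in 4 of 4 (-0.20, SE 0.106). The medians by pair were -0.06, 0.12, 0.00 and 0.20. Cnp, a myelin enzyme gene, was at 379, 325, 397 and 356 CPM in wild type and 383, 353, 396 and 456 CPM in heterozygotes. The heterozygote of prefix 139 was the highest animal and the other values overlapped. Of 13 oligodendrocyte precursor markers 10 were negative (median -0.08). Pdgfra, the growth factor receptor gene that defines these cells, was lower in 4 of 4 pairs, at 73.2, 72.9, 72.6 and 73.5 CPM in wild type and 66.8, 53.2, 72.4 and 59.8 CPM in heterozygotes (-0.22, SE 0.0695, adjusted p = 0.539 by edgeR).

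Synaptic genes gave small values. Of 28 postsynaptic scaffold genes 23 were negative with a median of -0.05, and 7 were lower in 4 of 4 pairs, beside 6.32% of all genes tested. Shank2, a scaffold gene of excitatory synapses, had ranges that did not overlap, at 321, 320, 298 and 318 CPM in wild type and 286, 281, 291 and 298 CPM in heterozygotes (-0.12, SE 0.0533). Grm5, a metabotropic glutamate receptor gene, was at 419, 412, 389 and 412 CPM against 380, 364, 384 and 365 CPM (-0.13, SE 0.053). Grik4, a kainate receptor gene, was higher in every heterozygote, at 21.1, 21.0, 19.7 and 20.5 CPM against 24.1, 25.5, 23.9 and 26.5 CPM (0.28, SE 0.0818). None of these 3 genes passed.

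Among cell type markers of neurons, 7 of 19 deep-layer genes were higher in 4 of 4 pairs and none was lower in all, beside 6.81% and 6.32% of all genes tested. Ntsr1, a receptor gene of layer 6 neurons, was at 14.4, 13, 14.8 and 13.2 CPM in wild type and 19.6, 16.2, 17.6 and 16.6 CPM in heterozygotes (0.34, SE 0.0938, adjusted p = 0.45 by edgeR). The upper-layer list was split: of 15 genes tested 8 were positive and 7 negative, with a median of 0.00. In 4 of 4 pairs, 2 upper-layer genes were higher and 1 was lower. The lower gene, Mdga1, an adhesion molecule, was lower in every heterozygote, at 31.8, 36.3, 29.8 and 27.1 CPM against 25.8, 18.8, 23.2 and 25.0 CPM (-0.42, SE 0.103). Cck, a neuropeptide gene of interneurons and pyramidal cells, was at 155, 173, 179 and 177 CPM in wild type and 195, 201, 190 and 215 CPM in heterozygotes (0.23, SE 0.0566). In each of these 3 genes the groups did not overlap, yet no adjusted p was under 0.269.

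Striatal markers had 16 of 18 negative fitted values and a median of -0.21, but the pairs did not share a direction, with medians of 0.62, -0.54, -1.16 and 0.04. Blood markers summed to 124 CPM in the wild-type male of prefix 048 and to 78.0 CPM in its partner, while the other 6 animals ran from 49.9 to 68.1 CPM. Of 34 tested imprinted genes 14 were positive, and Peg10 was lower in every heterozygote, at 33.8, 37.8, 35.6 and 32.9 CPM against 30.5, 28.7, 29.1 and 28.6 CPM (-0.26, SE 0.0747). Of 25 germline genes that DNA methylation silences, 7 had enough counts to be tested and 8 had no read in the 8 animals. Rec8, a meiotic cohesin gene, was higher in the heterozygote of each pair, at 0.806, 0.562, 1.25 and 0.922 CPM against 2.69, 1.24, 1.96 and 2.17 CPM. Its mean count of 17.0 makes that value uncertain.

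**Figure D5:**
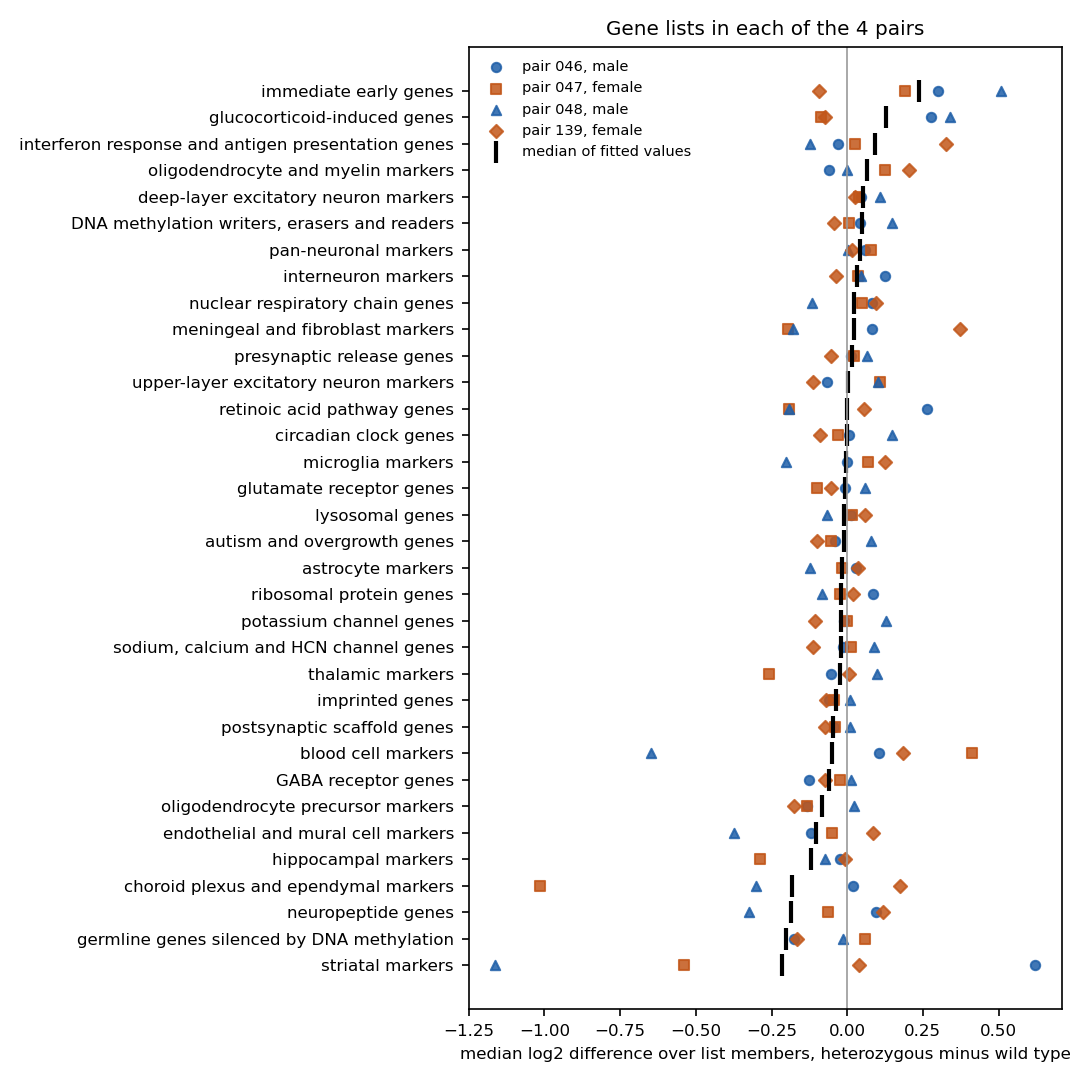
Median log2 difference between the heterozygous and wild-type animal over the tested members of each of 34 gene lists (horizontal axis), with 1 coloured marker for each pair and a black bar for the median of the fitted values. The immediate early list has 3 pairs to the right of 0 and that of prefix 139 to the left, and the striatal list spreads from -1.16 to 0.62.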

How the data were processed

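The deposited table of the series holds whole-number counts of reads per gene symbol for each library (34193 symbols), with no normalization by the authors. Per the labels' protocols, libraries were directional and read as single ends, and the submitters' processing notes name Trim Galore, Bowtie, STAR, bedtools and the mm9 build without versions or roles. Use of strand in counting is not stated, so overlapping and antisense genes are uncertain, as are near-identical copies such as ribosomal protein genes.

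The quasi-likelihood test of edgeR 4.0.16 was applied to the counts in R 4.3.3, with TMM factors, robust dispersion, filterByExpr by genotype, Benjamini-Hochberg over all genes tested and a threshold of 0.05. CPM uses TMM-scaled library sizes, and sums over lists use total counts. DESeq2 1.42.0, RLE factors, other filters, fits without the block and fits leaving out animals were alternatives. Leaving out both animals of a prefix was added after seeing the data. Scripts were tested on simulated data.

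The title prefix was a block. Deviations from the genotype means correlated across genes at 0.185 to 0.274 between animals of a prefix, above the set limit of 0.1, against -0.01 to 0.136 for other animals of the same sex. Within a sex, the difference between the wild-type animals correlated with that between the heterozygotes at 0.154 (female) and 0.104 (male). The pairing comes from these titles and this check.

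Named genes were Dnmt3a, the calls, the smallest p in each direction up to 10 (mean count of at least 20, same direction in 4 of 4 pairs), in each list the calls and the 3 smallest p, the 5 smallest p per direction of the tested differences, and the 10 smallest p of a fit of all 14 animals. All genes called in males, and members of the methylation list other than the 3 with the smallest p, were named after their values were seen. The animals and the 34 gene lists were chosen with earlier results of these data known.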

Additional observations from a re-analysis of the deposited data

Results flagged for a closer look

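In 48 groups of 4 animals, 3 held a value farther from the rest than Dixon's 95% limit allows, where chance flags about 1 in 20. Klf10 was at 78.4 CPM in the wild-type animal of prefix 047 (the other 3 between 49.2 and 51.1) and at 93.0 CPM in the heterozygote of the same prefix (the others between 61.0 and 64.5). Nr2f2 was at 29.3 CPM in the heterozygote of prefix 048 (the lowest of the others 17.6).

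The genotype effect differed between the sexes for 8 genes by the edgeR test of the difference. Female minus male, the log2 differences were -0.768 for Arc, -0.756 for Ddit4, -1.15 for Fosb, -0.666 for Irs2, -0.595 for Mfge8, -0.733 for Pim3, -0.939 for Sgk1 and 0.712 for Tfrc. It also differed between the 8 animals and those of prefixes 119 and 141, sets that were split with earlier results of these data known. Among the 10 genes named for this, the effect in the 8 animals minus that in the others was 0.636 for Pak6, 0.649 for mt-Rnr2, 0.677 for A930011O12Rik, 0.493 for Palm and 0.596 for Ndufb9. It was -0.591 for Adar, -0.546 for Tspyl5, -0.633 for Grin2b, -0.607 for Fam100a and -0.454 for Tspyl4.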

How the results depend on the processing

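Counts of calls depended on the block, on the low-count filter and on single pairs. In the fits with the block, leaving out 1 animal also takes its partner out of the contrast. For genotype in the 8 animals (2 called), DESeq2 called 1, no filter on low counts 75 (all among the genes tested with the filter), all 14 animals in the fit 9, no replicate block with sex as a term 0 and with genotype alone 1 (Aldh1a1). Leaving out 1 animal gave 0 to 9 calls. Leaving out both animals of prefix 046, 047, 048 or 139 gave 3, 1, 9 and 9. For the difference between the sexes (8 called) the same choices gave 2 (DESeq2), 50 (no filter), 0 (no replicate block), 0 to 160 (1 animal left out), and 160, 9, 37 and 0 without prefix 046, 047, 048 or 139. For females (0 called) no filter gave 69, 1 animal left out 0 to 104, and prefixes left out 103, 0, 82 and 3. For males (22 called) DESeq2 gave 5, no filter 75, no replicate block 0, 1 animal left out 25 to 153, and prefixes left out 138, 21, 75 and 22. The difference between the sets of animals (767 called) gave 0 without the replicate block and 170 to 1153 with 1 animal left out. Prefixes 119 and 141 alone (2304 called) gave 1477 with DESeq2, 0 with genotype alone and no replicate block, and 1241 to 2403 with 1 animal left out. The cause was not tested.

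Of 2900 alternative values for single genes, 2639 kept their direction and side of the threshold, 178 lost a call, 62 gained one and 21 changed sign. None of the 7 genes that changed sign had passed. With 1 animal left out, Kl ran from -0.477 to 0.0851, Prlr from -0.30 to 0.0609, Hba-a1 from -0.167 to 0.201, Hba-a2 from -0.376 to 0.211, Alas2 from -0.289 to 0.36, Gnal from -0.205 to 0.0254 and H2-K1 from -0.019 to 0.334. Without both animals of prefix 047, Kl was at 0.0797 and Prlr at 0.0561. Without those of prefix 048, Hba-a1 was at 0.203, Hba-a2 at 0.213, Alas2 at 0.362 and Gnal at 0.0279, and without those of prefix 139, H2-K1 was at -0.0242. Even abundant genes had standard errors near 0.05 (Grm5, 0.053), so log2 differences of that size were not detectable with these animals, and values of genes with mean counts under 20 are uncertain.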
